A study of Mus musculus with 2 samples.

Results

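The 32 genes described here encode receptors, signalling enzymes, adaptors and actin regulators that most blood lineages use, from CD45 at the cell surface to the coronin and plastin proteins that shape cortical actin. They were chosen by symbol and role, and every probeset that the array annotation names with that symbol alone was taken, 648 probesets in all out of 1048575 in the deposited value table. Spreadsheet software stops at this many rows below a header, so the table may be cut and a gene may lack probesets. All 32 genes had probesets, and 30 of them were measured, among 15087 measured genes. The samples were mouse cells from the Bry-GFP embryonic stem cell line, whose FLK1-positive mesoderm was isolated from embryoid bodies on day 3 and then cultured with DMSO, the solvent control, or with compound B, an inhibitor of LSD1, at 300 nM. On culture day 2 the cells positive for CD41 were sorted from both cultures, and the labels describe them as hemogenic endothelium. One cell line, 1 culture and 1 array stand for each condition, so every difference below compares 2 arrays and carries no test. The series concerns Gfi1 proteins and their recruitment of LSD1, a histone demethylase, while blood precursors emerge, and the comparison addresses which transcripts differ when LSD1 is inhibited.

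Blood cells share a signalling machinery that other tissues largely lack. Surface receptors pass signals through tyrosine kinases such as Syk and Btk to adaptors, phospholipase C and PI3-kinase, and the phosphatases SHP-1 and SHIP1 limit these signals. Vav and Dock proteins then load the GTPase Rac2, which acts through the WAVE and WASP complexes to build the branched actin that leukocytes need for migration and contact. Many of these proteins have a close relative that is expressed in most tissues, and several are lost in inherited immune deficiencies.

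Most of the 32 genes differed little between the arrays, and those that stood apart were mainly higher with the inhibitor. The tetraspanin gene Cd53 and the interleukin 10 receptor gene Il10ra were at least 2-fold higher. The actin-bundling gene Lcp1 and the lysosomal membrane gene Laptm5 came closest to that size. The adaptor gene Sla was the member furthest down, a rank that depended on the choice of probesets, as given below. A gene's level is the median over its bright probesets, those whose higher value reached the table's median value of 3.17, on a log2 intensity scale. Its difference is the median over the same probesets of inhibitor minus DMSO, and at least 4 bright probesets were needed. A gene met the size rule when it differed by at least 1 in log2, with at least 75% of its bright probesets in that direction. Of the 30 measured members, 2 were higher by this rule (6.67%), against 1.72% of all measured genes, and 0 were lower, against 0.563%. The 2 higher members, Cd53 and Il10ra, had 3 probesets each that were bright in both arrays and reached the required 4 through the inhibitor array alone, so their count gives no support to a difference of the group. The number higher was 0 of the 27 members with at least 4 probesets bright in both arrays, against 1.21% of all genes. These 27 do not include Cd53 and Il10ra. With no filter on dim probesets the number was 0 of 32, against 1.13% of all genes. The median difference was 0.11 over the members and 0.06 over all measured genes, and 21 of the 30 were above 0 (70.0%), against 59.0% of all measured genes. A difference of at least 0.5 was found in 6 of the 30 members, against 9.37% of all genes, and a difference of at most -0.5 in 1, against 4.89%. At a 1.5-fold limit in place of 2-fold, 4 members were higher, Cd53, Il10ra, Lcp1 and Laptm5, against 5.85% of all genes. At that limit 1 was lower, Sla, against 2.66%. Cd53 and Il10ra are among the 21, the 6 and the 4 members and enter the median of 0.11. These values too therefore give no support to a difference of the group. With probesets bright in both arrays, the median was 0.09 over the 27 members and 0.05 over all genes. In bulk RNA of sorted cells, a lower share of cells of a type and less RNA per cell cannot be told apart.

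The promoter sequences of 4 members are shown because these genes lie on both sides of 0. PU.1 and Runx1 are known activators of leukocyte genes, and Gfi1 is a repressor that recruits LSD1. Each is the 250 bases before the annotated start of the gene, from RefSeq on GRCm38.p6, written 5′ to 3′ on the gene's strand. Capitals mark every match, on either strand, to GAGGAA (the core of a PU.1-type purine box), TGTGGT (a Runx motif) or AATCAC (a core of the Gfi1 motif), and no matches overlapped.
Cd53, chr3:106790150-106790399, minus strand: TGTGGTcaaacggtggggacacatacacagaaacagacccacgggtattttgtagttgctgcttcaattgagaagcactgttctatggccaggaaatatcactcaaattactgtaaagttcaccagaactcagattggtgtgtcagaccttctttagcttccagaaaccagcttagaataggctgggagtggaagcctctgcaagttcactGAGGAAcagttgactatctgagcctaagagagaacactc
Inpp5d, chr1:87620062-87620311, plus strand: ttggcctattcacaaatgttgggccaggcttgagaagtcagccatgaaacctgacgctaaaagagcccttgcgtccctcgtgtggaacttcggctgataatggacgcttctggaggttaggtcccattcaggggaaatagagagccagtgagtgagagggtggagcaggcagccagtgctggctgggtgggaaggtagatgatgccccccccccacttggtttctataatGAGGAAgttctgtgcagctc
Wipf1, chr2:73529488-73529737, minus strand: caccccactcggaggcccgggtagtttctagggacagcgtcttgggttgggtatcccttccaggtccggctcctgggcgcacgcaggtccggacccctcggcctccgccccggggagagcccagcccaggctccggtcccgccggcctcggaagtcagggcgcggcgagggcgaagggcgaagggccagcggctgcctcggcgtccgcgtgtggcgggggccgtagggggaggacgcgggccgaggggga
Plek, chr11:17008719-17008968, minus strand: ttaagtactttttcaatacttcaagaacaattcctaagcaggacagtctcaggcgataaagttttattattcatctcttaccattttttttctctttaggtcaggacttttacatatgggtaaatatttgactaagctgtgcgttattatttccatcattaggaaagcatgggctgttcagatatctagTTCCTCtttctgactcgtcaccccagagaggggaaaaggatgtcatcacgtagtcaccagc

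The purine box core lies 39 bases before the start of Cd53 and 20 bases before that of Inpp5d, and on the opposite strand 61 bases before that of Plek. The Runx motif of Cd53 begins 250 bases before its start, and Wipf1 has none of the 3 motifs in this window. Windows were found for 26 of the 32 members, those without being Il10ra, Selplg, Sla, Stap1, Rac2 and Nckap1l. The purine box core was in 12 of 37 member windows (32.4%), against 23.3% of 32851 windows of that length, the Runx motif in 7 (18.9%, against 14.0%) and the Gfi1 core in 2 (5.41%, against 9.14%). These are letter matches only, and binding was not measured. Of the 4 genes, Cd53, Inpp5d and Wipf1 were higher by at least 0.5 in the inhibitor array and Plek was lower, as given below by role.

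**Figure D1:**
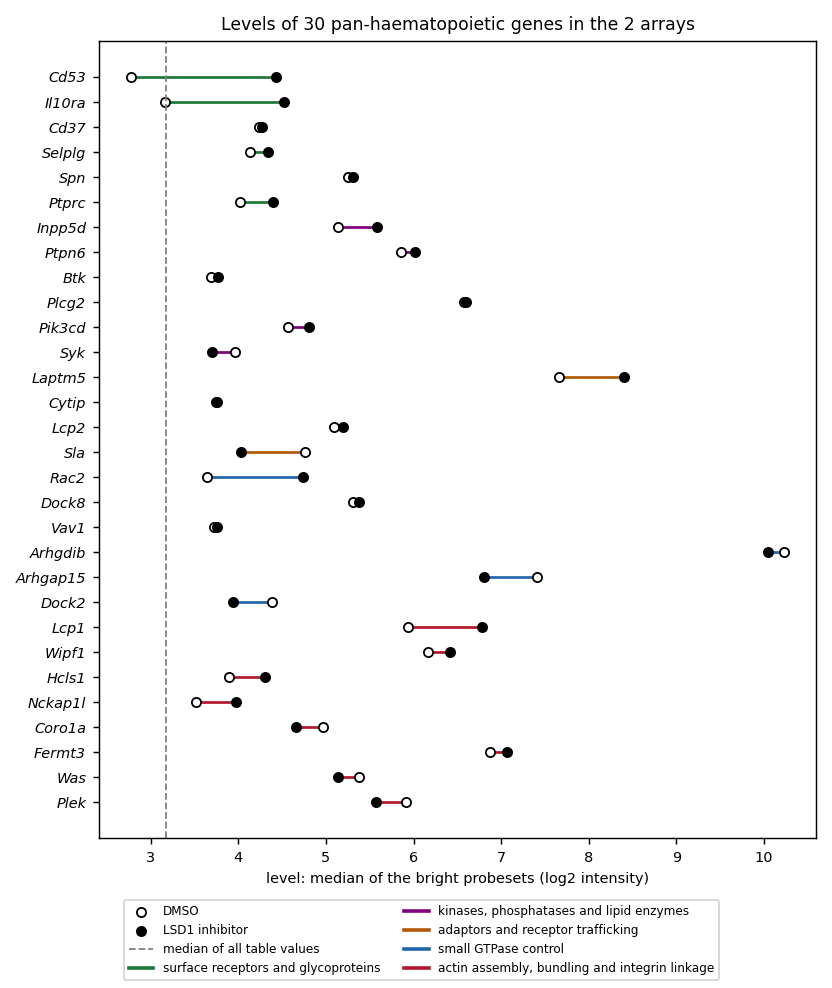
Level of each of the 30 measured members in the DMSO array (open circles) and in the inhibitor array (filled circles), as the median log2 intensity of its bright probesets, grouped by role. The dashed line is the median of all table values, 3.17, and Cd53 and Il10ra are the 2 genes whose DMSO level lies below it.

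Among the surface receptors and glycoproteins, 2 of 6 measured genes were higher past the size rule (33.3%, against 1.72% of all measured genes). Both reached the required 4 bright probesets through the inhibitor array alone, so this count gives no support to a difference of the role. Cd53, a tetraspanin of leukocytes that organises receptors in the membrane, had a level of 2.78 in the DMSO array and 4.44 in the inhibitor array and differed by 1.43 (SD 1.43 over 6 probesets), or 2.70-fold. Its 6 bright probesets ran from 1.74 to 3.28 with DMSO and from 3.22 to 6.03 with the inhibitor, and all 6 were higher. The range with the inhibitor could not reach below 3.17, since the inhibitor value was the higher of each pair. The probeset values behind this gene were unequal: 2 probesets differed by 3.67 and 3.74, and the smallest difference was 0.35. Il10ra, the ligand-binding chain of the receptor for the anti-inflammatory cytokine interleukin 10, had levels of 3.16 and 4.52 and differed by 1.09 (SD 0.87 over 6 probesets), again with all 6 higher. Its probesets lay between 2.34 and 4.29 with DMSO, and in the inhibitor array 5 of them lay between 4.46 and 4.71 and the sixth at 3.35. Both genes were dim in the control, where 3 of the 6 bright probesets of each were below the table's median. With the inhibitor none of the 6 could be, because the inhibitor value was the higher one and had to reach it. The other 3 of the 9 probesets of each gene were below the median in both arrays. With the dim probesets included, 9 for each gene, Cd53 differed by 0.96 and Il10ra by 0.68, and neither then met the size rule. In each gene 8 of the 9 were higher and 1 was lower.

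**Figure D2:**
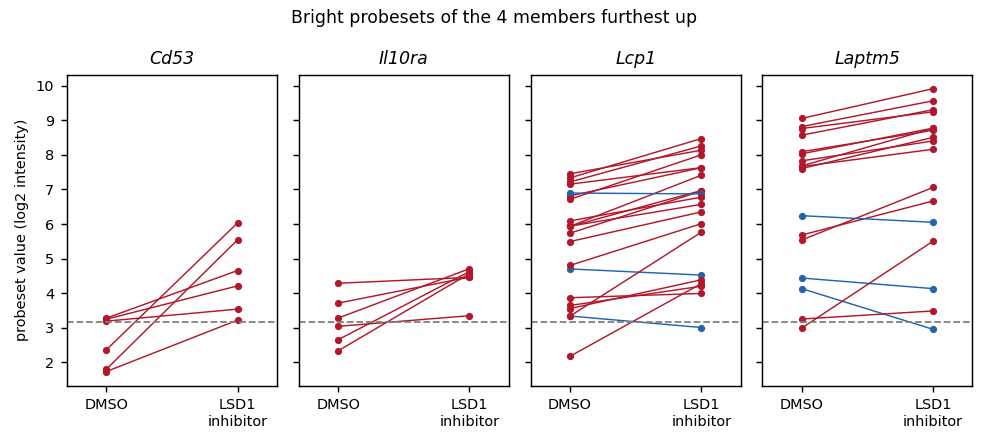
Log2 intensity of every bright probeset of Cd53 (6), Il10ra (6), Lcp1 (21) and Laptm5 (17) in the 2 arrays, with a line joining the values of 1 probeset, red where higher and blue where lower with the inhibitor. All lines of Cd53 and Il10ra go up, and 3 of 6 in each start below the table's median of 3.17 (dashed). In Lcp1 and Laptm5, 1 probeset each starts below it and 3 probesets each go down.

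The other surface genes showed no such difference. Ptprc, which encodes the leukocyte phosphatase CD45, had levels of 4.02 and 4.40 and a difference of -0.25 (SD 0.78), with 6 of 14 bright probesets higher. Only 14 of its 45 probesets were bright, and its brightest one read 9.39 with DMSO and 9.15 with the inhibitor. The sign of Ptprc depended on dim values, since the 8 probesets that were bright in both arrays included 5 that were higher. Cd37, a second leukocyte tetraspanin, differed by 0.04 (levels 4.24 and 4.28, SD 0.85), with 8 of 14 probesets higher. Spn, which encodes the sialomucin CD43, had levels of 5.25 and 5.31 and differed by -0.21 (SD 0.28), and Selplg, which encodes the selectin ligand PSGL-1, had levels of 4.13 and 4.33 and differed by -0.08 (SD 0.30). Cd48, a ligand of the receptor 2B4 that is used to tell blood progenitors apart, was not measured, with 2 of 9 probesets bright. Those 2 read 4.18 and 6.73 with DMSO and 2.87 and 6.53 with the inhibitor.

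None of the 6 kinases, phosphatases and lipid enzymes met the size rule, and their median difference was 0.05. Inpp5d, which encodes the lipid phosphatase SHIP1, stood furthest up, with levels of 5.13 and 5.58 and a difference of 0.54 (SD 0.69), and 25 of its 31 bright probesets were higher. Ptpn6, which encodes the tyrosine phosphatase SHP-1, had levels of 5.86 and 6.01 and differed by 0.27 (SD 0.73), with 12 of 18 probesets higher. Both inhibitors of receptor signalling therefore read above 0 without reaching 2-fold. Syk, the kinase that binds phosphorylated receptor tails, had levels of 3.96 and 3.70 and differed by -0.33 (SD 1.15), with 8 of 12 probesets lower and single probesets from -2.28 to 1.87. Btk, the kinase needed for B cell development, was dim, with 4 of 21 probesets bright, and differed by 0.07 (levels 3.69 and 3.77). Plcg2, the phospholipase C of B cells and platelets, was bright in all 34 probesets, with levels of 6.58 and 6.60 and a difference of 0.02 (SD 0.50). Pik3cd, the leukocyte PI3-kinase subunit p110 delta, had levels of 4.57 and 4.81 and differed by -0.03 (SD 0.70).

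Of the adaptors and trafficking proteins, Laptm5 and Sla went opposite ways. Laptm5, a lysosomal membrane protein that promotes the breakdown of antigen receptors, had levels of 7.66 and 8.40 and differed by 0.73 (SD 0.78). All 17 of its probesets were bright, 14 were higher, and its 10 brightest probesets in the DMSO array were all higher with the inhibitor, by 0.48 to 1.08. Sla, which encodes the adaptor SLAP that also lowers antigen receptor levels, had levels of 4.77 and 4.03 and differed by -0.67 (SD 0.43). Its 5 bright probesets, of 11, read between 3.38 and 5.37 with DMSO and between 2.60 and 5.08 with the inhibitor. Of these 5, 4 were lower. With the dim probesets included, Sla differed by only -0.14, and Syk at -0.42 and Plek at -0.36 were then further down. Lcp2, which encodes the adaptor SLP-76 of T cells, mast cells and platelets, had levels of 5.09 and 5.19 and a difference of 0.01 (SD 0.93). Cytip, a scaffold that binds the exchange factor cytohesin, was bright in 8 of 31 probesets and differed by 0.17 (levels 3.74 and 3.75). Stap1, an adaptor downstream of Tec-family kinases, was not measured, with 1 bright probeset of 12 that read 4.56 with DMSO and 3.42 with the inhibitor. Over all 12 probesets, nearly all dim, 9 were higher and 3 lower, and the median difference was 0.39.

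The genes of small GTPase control lay between -0.12 and 0.40, and none of the 6 met the size rule. Rac2, the Rac protein of blood cells, had levels of 3.64 and 4.74 and differed by 0.40 (SD 0.52), with 7 of 9 bright probesets higher. The gap between its levels was larger than its difference, since each level is a median over probesets of unequal brightness. The brightest read 9.18 with DMSO and 9.45 with the inhibitor and the dimmest 1.88 and 3.25. Dock8, an exchange factor for Cdc42 that is lost in a human immune deficiency, differed by 0.22 (levels 5.31 and 5.38, SD 0.90), with 30 of 48 probesets higher. Vav1, an exchange factor that is activated by receptor kinases, differed by 0.17 (levels 3.72 and 3.75, SD 0.90), and Dock2, the Rac exchange factor of migrating lymphocytes, by -0.12 (levels 4.38 and 3.94, SD 0.79). Arhgdib, which encodes a GDP-dissociation inhibitor of blood cells, had the highest agreement between its probesets of all 30 members, with levels of 10.22 and 10.05, a difference of 0.01 and an SD of 0.12 over 7 probesets.

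Arhgap15, which encodes a GTPase-activating protein for Rac, differed by -0.04, although its levels were 7.41 and 6.80. Its 16 bright probesets fell into sets of 8 and 8. One set read between 9.21 and 9.47 with DMSO and between 9.18 and 9.45 with the inhibitor, with differences from -0.24 to 0.12. The other set read between 1.24 and 5.62 with DMSO and between 2.08 and 4.43 with the inhibitor, with differences from -1.85 to 2.23. The brighter set, in which the arrays hardly differed, had a median difference of -0.09, and the dimmer set one of 0.28. The annotation used here does not give the position of a probeset along the gene.

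**Figure D3:**
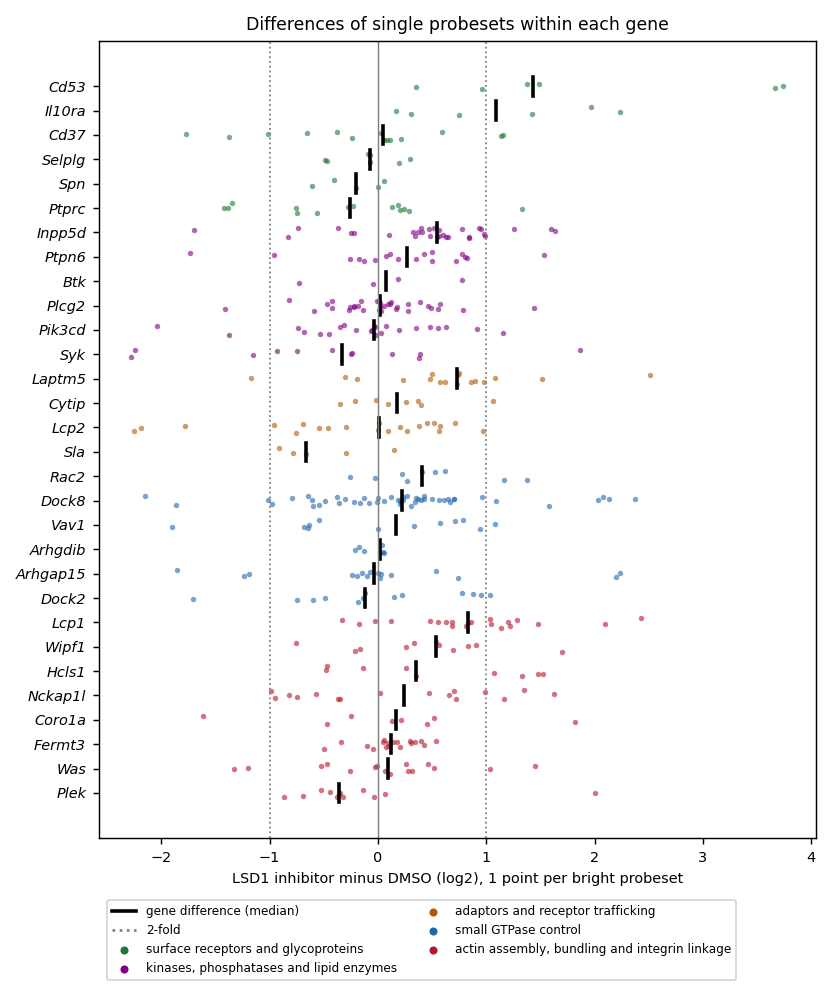
Inhibitor minus DMSO (log2) for every bright probeset of the 30 measured members, coloured by role, with a black bar at the gene's median and dotted lines at 2-fold in each direction. Probesets of most genes lie on both sides of 0, all 6 of Cd53 and of Il10ra lie above it, and Arhgdib has the smallest SD over its probesets, 0.12.

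The actin and integrin-linkage genes had the highest median of the 5 roles, 0.21, with 0 past the size rule. Of these genes, 7 of 8 were above 0 (87.5%), against 59.0% of all measured genes. Among the 7, the sign of Was, Nckap1l, Hcls1 and Coro1a turned in some alternative settings. Lcp1, which encodes L-plastin, the actin-bundling protein of leukocytes, had levels of 5.93 and 6.78 and differed by 0.83 (SD 0.67), with 18 of 21 bright probesets higher. At the stricter limit for bright probesets, the 75th percentile of all values (4.84), Lcp1 differed by 1.04 over 15 probesets and met the size rule. Wipf1, which encodes the WASP-binding protein WIP, had levels of 6.16 and 6.42 and differed by 0.54 (SD 0.66), with 8 of 11 probesets higher. Hcls1, which encodes HS1, the blood form of cortactin, differed by 0.35 (levels 3.89 and 4.31, SD 0.82), but its 3 brightest probesets in the DMSO array were lower with the inhibitor. Nckap1l, the blood subunit of the WAVE complex also called Hem1, differed by 0.24 (levels 3.52 and 3.97) and turned to -0.46 at the stricter limit. Was, the gene of the Wiskott-Aldrich syndrome protein, differed by 0.09 (levels 5.38 and 5.13, 16 of 16 probesets bright). Coro1a, the leukocyte coronin, differed by 0.17 (levels 4.97 and 4.65, SD 0.98). With its dim probesets included, Coro1a turned to -0.26, with 5 of 12 probesets higher. Fermt3, which encodes kindlin-3, the integrin activator of platelets and leukocytes, had levels of 6.87 and 7.07 and a small difference of 0.12 (SD 0.26), in 14 of 18 probesets. Plek, which encodes pleckstrin, a protein kinase C substrate abundant in platelets, was the single lower gene of this role, at -0.36 (levels 5.91 and 5.58, SD 0.73), with 10 of 12 probesets lower.

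Agreement between the probesets of a gene was limited. The SD over probesets was larger than the size of the difference in 27 of 30 members, all but Il10ra, Lcp1 and Sla, and its median was 0.73, against 0.60 over all measured genes. At least 75% of the bright probesets were higher in 7 members, namely Cd53, Il10ra, Inpp5d, Laptm5, Rac2, Lcp1 and Fermt3, a share of members close to the 23.0% of all measured genes. At least 75% were lower in 2, Sla and Plek, against 10.8% of all genes. The levels and the difference had opposite signs in 7 members: Ptprc, Spn, Selplg, Pik3cd, Arhgdib, Was and Coro1a. The sign was the same in every one of the 16 alternative settings that measured the gene for 17 members, 12 of them above 0 and 5 below 0, the latter being Spn, Syk, Pik3cd, Sla and Plek. Among the other 13, the sign of Cd37, Plcg2, Lcp2 and Arhgdib turned with the scaling of the arrays alone.

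Many members were dim as well. Of the 648 probesets, 444 were bright (68.5%), against 77.2% of all probesets with 1 gene, and in 10 members under 50% were bright. These were Ptprc, Cd48, Btk, Sla, Stap1, Cytip, Vav1, Dock2, Arhgap15 and Nckap1l, for which the reading rests on the minority of probesets that exceeded the median. In 7 members, Spn, Ptpn6, Plcg2, Laptm5, Arhgdib, Was and Wipf1, all probesets were bright. Over the 441 bright probesets of measured members, 265 were higher (60.1%), against 54.9% over all measured genes. A probeset bright in 1 array alone had its direction fixed by the filter. Of the 364 that were bright in both arrays, 221 were higher (60.7%), against 55.2% over all measured genes. Probesets of 1 gene are not independent, so neither share gives support to a difference of the group.

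Broadly expressed relatives were read beside the blood genes. Of 24 measured paralogues, 0 met the size rule in either direction, and their median difference was 0.15. In 15 pairs with both genes measured, the blood gene had the larger difference in 9 and the paralogue in 6, and the median of member minus paralogue was 0.11. Hcls1 at 0.35 stood beside the cortactin gene Cttn at -0.57, which was lower in 15 of 15 probesets (levels 6.96 and 6.50). Lcp1 at 0.83 stood beside the T-plastin gene Pls3 at 0.17, Laptm5 at 0.73 beside Laptm4a at -0.01, and Wipf1 at 0.54 beside Wipf2 at 0.05. The order was the reverse for the kindlins, where Fermt3 differed by 0.12 and Fermt2, the kindlin of adherent cells, by 0.96 (levels 6.11 and 7.03), with 14 of 14 probesets higher. It was also the reverse for Was at 0.09 beside Wasl, which encodes N-WASP, at 0.54, and for Dock2 at -0.12 beside Dock1 at 0.35. Inpp5d at 0.54 and its relative Inppl1 at 0.44 were alike in direction, as were Rac2 at 0.40 and Rac1 at 0.10. Coro1a at 0.17 stood beside Coro1b at 0.13, but Coro1a turned to -0.26 with its dim probesets included. The phosphatase gene Ptpn11 was at -0.17 beside Ptpn6 at 0.27, and Vav2 at -0.08 beside Vav1 at 0.17. Nckap1 at 0.41, Plcg1 at 0.27 and Pik3ca at 0.06 lay above Nckap1l at 0.24, Plcg2 at 0.02 and Pik3cd at -0.03. Another lysosomal relative of Laptm5, Laptm4b, differed by 0.97 (levels 7.61 and 8.66), close below the limit of the size rule. Among the tetraspanin relatives of Cd53, Cd81 differed by 0.38, Cd63 by 0.35, Cd151 by 0.16, Cd82 by 0.09 and Cd9 by -0.04.

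**Figure D4:**
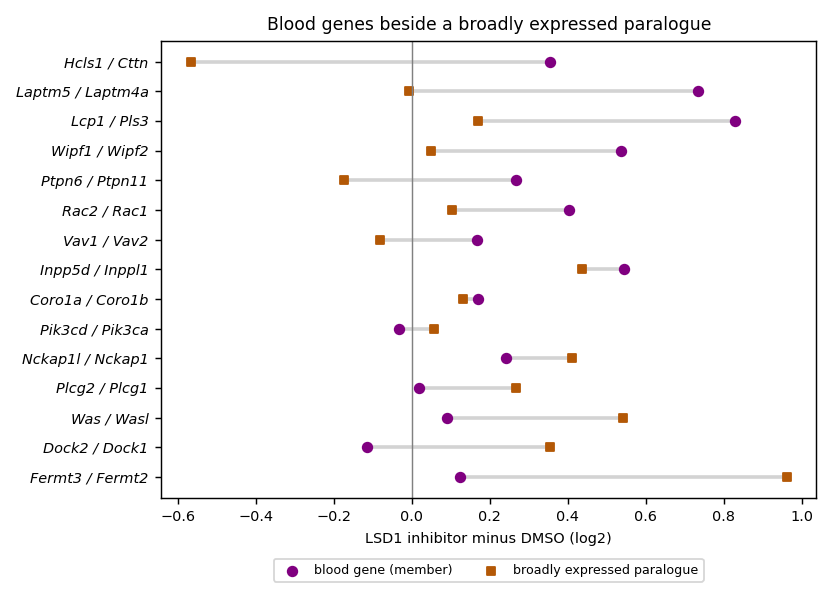
Inhibitor minus DMSO (log2) of 15 blood genes (circles) and of a broadly expressed paralogue (squares), ordered by the gap between them. Hcls1, Laptm5, Lcp1 and Wipf1 lie furthest above their paralogue and Fermt3 furthest below, with Fermt2 at 0.96.

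Other genes of leukocyte receptor signalling showed no common direction. Of 30 measured kinases, adaptors and other signalling genes, 0 met the size rule in either direction and 15 were above 0. Their median was 0.01, and it lay below 0, at -0.02, after removal of a trend with level. The adaptor gene Dok2 differed by -0.86 (levels 4.67 and 4.13), Grap, a relative of Grb2, by 0.80 (levels 4.21 and 4.99), and Tyrobp, which encodes the receptor-paired adaptor DAP12, by 0.70 (levels 4.95 and 5.64), with 5 of 6 probesets higher.

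In the WAVE, WASP and Arp2/3 list, 1 of 29 measured genes was higher past the size rule (3.45%, against 1.72% of all genes) and none was lower. This was Elmo1, which pairs with Dock proteins to activate Rac: it had levels of 4.74 and 7.11 and differed by 2.16 (SD 0.96), with 25 of 26 probesets higher. The genes of its binding partners, Dock2 at -0.12 and Dock1 at 0.35, did not meet the size rule. Gmfg, which encodes a factor of blood cells that takes actin branches apart, differed by 0.80 (levels 8.29 and 9.21), and Capg, which caps actin filaments, by 0.77. The list's median was 0.16, against 0.06 over all measured genes, and 26 of the 29 genes were above 0 (89.7%, against 59.0%).

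The medians of the endothelial and red cell markers lay further from 0 than that of the members. All 16 endothelial markers were above 0 and 10 met the size rule. Their median was 1.26, and their summed level was 89.5 with DMSO and 113 with the inhibitor. A summed level adds the log2 levels of the genes in a list and is not an amount of RNA. Cdh5, which encodes VE-cadherin, had levels of 7.89 and 9.84. All 11 measured red cell markers were below 0 and 9 met the size rule. Their median was -1.38, and their summed level was 83.0 and 68.9. Of 7 measured megakaryocyte and platelet markers, 6 were below 0 and 1 met the size rule, and the summed level was 38.5 and 34.0, while Itga2b, the gene of CD41 itself, had a level of 6.19 with DMSO and differed by -0.12. Of 11 measured myeloid markers, 8 were above 0 and 2 met the size rule, Lyz2 at 1.77 and Mrc1 at 1.49, with a summed level of 50.6 and 53.2. None of 6 lymphoid markers met the size rule, with a summed level of 21.4 and 23.4, and of 11 mesenchyme markers 9 were below 0 and 2 met the size rule as lower, with a summed level of 66.8 and 62.2. No marker can be listed at 0 on this intensity scale. The part of these cell types in the differences of Cd53, Il10ra, Lcp1, Laptm5 and Sla was not tested.

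**Figure D5:**
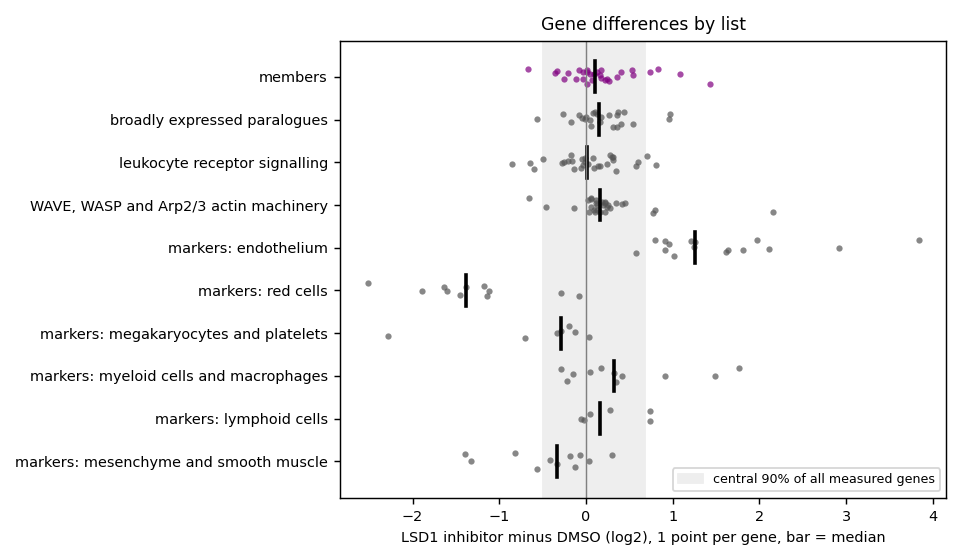
Inhibitor minus DMSO (log2) of each measured gene among the members, the 3 lists of related genes and the 6 lists of cell type markers, with a bar at each median and the central 90% of all measured genes shaded (-0.50 to 0.68). The members centre at 0.11, while endothelial markers lie above 0 and red cell markers below it.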

How the data were processed

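Total RNA of the 2 samples was labelled with biotin as cDNA and hybridised to Affymetrix arrays, per the labels' protocols. The deposited values are 1 number per probeset and array, read here as log2 intensity from their range (0.157 to 13.5). How the authors summarised and normalized them is not given here. At equal rank the arrays were within 0.085 of each other. Depth has no counterpart on arrays, and their number limits the precision. Genes were named from the platform annotation, with older symbols updated through RefSeq (GRCm38.p6), and probesets naming several genes (5737) were left out. Levels, differences, the 2-fold rule and the limit for bright probesets were computed in Python 3.11.15 with pandas 2.3.3 and statsmodels 0.14.6, tested on simulated data. All members and their measured paired paralogues were named, with the genes past the rule and the 3 furthest from 0 in each list of related genes. Markers past the rule are given as counts, with a few named. The sequences shown belong to members at or beyond 0.5, or to the lowest member with a window, where the window lies wholly outside the annotated gene. Those of Lcp1 and Laptm5 overlap the gene and are not shown. Sla has no window, so Plek stands for the lower side. Members, lists and shown sequences were chosen with earlier results of these data known. Alternatives covered scaling, dim values, probeset summaries, probeset numbers and thresholds.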

Additional observations from a re-analysis of the deposited data

How the results depend on the processing

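The number of members past the size rule depended on how probesets were chosen. It was 2 higher and 0 lower in the reported setting, against 1.72% and 0.563% of all genes. It was 0 higher with no filter on dim probesets, with probesets bright in both arrays and with at least 8 bright probesets. It was also 0 higher with odd-ranked or even-ranked probesets alone, and at 3-fold. In these settings, 3-fold aside, 1.13% to 1.94% of all genes were higher. Apart from the unfiltered and 3-fold settings, Cd53 and Il10ra there no longer had enough probesets. The number was 1 higher (Lcp1) with the filter at the 75th percentile, against 2.16% of all genes. It was 1 higher (again Lcp1) with the brighter probesets alone, against 1.48%. At 1.5-fold it was 4 higher (Cd53, Il10ra, Lcp1 and Laptm5, against 5.85% of all genes). It was 1 lower with at least 1 bright probeset, against 2.15% of all genes. There Stap1 entered with 1 of its 12 probesets, although 9 of the 12 were higher. It was 1 lower (Sla, against 2.66% of all genes) at 1.5-fold. The median of the members stayed above 0 in all 16 settings, from 0.05 to 0.17. That of all measured genes ran from -0.005 to 0.087 over the same settings. The median of the paralogues was 0.25 as a mean over probesets and 0.28 with even-ranked probesets, and that of the signalling list 0.17 with the filter at the 75th percentile. Causes beyond the loss of probesets were not tested. No called member changed sign. Dim control values limit Cd53 and Il10ra, which lay between 0.96 and 1.93 and between 0.68 and 1.14 over the 10 settings that measured each. No paired analysis was possible because each condition has 1 array.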
